A study of Arabidopsis thaliana with 12 samples.

Results

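Among 13356 Arabidopsis genes measured by a probe set listed with a single gene, 74 were lower in slim1-1 than in wild-type seedlings on cadmium and within a narrow window of the wild type on arsenite. A gene was a member when its mean log2 signal in the 3 mutant cadmium arrays lay at least 0.8 below the mean of the 3 wild-type cadmium arrays, when all 3 mutant values lay below all 3 wild-type values, and when its genotype difference on arsenite lay between -0.5 and 0.5. Of all genes, 97 met the size limit on cadmium, 93 of these had no overlap between the genotypes, and 74 of these also lay in the arsenite window, while 13 lay below it and 6 above it. The members were thus chosen by the genotype differences measured on both metals, and these values are given as a description with no test. Only the comparison of cadmium with arsenite, averaged over the genotypes, was tested for them.

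SLIM1, also called EIL3, belongs to the EIN3-like transcription factors and controls much of the plant's response to sulfur limitation, including sulfate uptake and the breakdown of glucosinolates. Cadmium and arsenite are both bound by thiols, and plants detoxify them through glutathione and the phytochelatins made from it, which draws on the sulfur supply. The experiment thus set a regulator of sulfur metabolism against a pair of thiol-binding metals.

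Whole seedlings aged 14 days were grown on minimal medium and profiled on 12 single-colour Affymetrix arrays, with 3 biological replicates in each of 4 groups. The wild type was Col-0 and the mutant carried the slim1-1 allele of SLIM1 in every mutant sample. One pair of groups, wild type and slim1-1, received 20 µM arsenite, As(III), and the other pair, wild type and slim1-1, received 100 µM cadmium. The treatment text of every sample gives 12 days without treatment and then 48 h on arsenite and names no cadmium, so the exposure time of the cadmium seedlings was not known. There were no untreated seedlings, so a low value in the mutant on cadmium cannot be told apart from a failure to rise above an untreated level. Whole seedlings mix many cell types, and fewer cells of a type cannot be told apart from less RNA per cell. SLIM1 itself was not analysed here, so the genotype labels were not checked against it.

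Values correlated across genes at 0.992 or more between replicates. The arsenite arrays had probe-set medians of 6.85 to 6.94 and the cadmium arrays of 5.58 to 5.64 on the deposited log2 scale, so levels were not compared directly between the metals. On cadmium the probe set for 25S ribosomal RNA averaged 9.75 in slim1-1 and 10.43 in the wild type, was lower on every mutant array, and overlapped between genotypes on arsenite. The difference between 3′ and 5′ actin probe sets, a sign of RNA quality, was higher on every mutant cadmium array, by 0.25 between the group means. Those of GAPDH and ubiquitin overlapped there. On arsenite the GAPDH difference was lower on every slim1-1 array, with group means apart by -0.14. The ubiquitin difference was higher on every slim1-1 arsenite array, with group means apart by 0.12, and that of actin overlapped. All 3 measured root markers had higher means in slim1-1 on cadmium, AT1G30870 by 0.91 (limma adjusted p = 0.0359, and up to 0.128 under 9 alternatives), EXPA18 by 0.50 (0.139) and EXPA7 by 0.41 (0.139), and EXPA7 passed without wild-type cadmium replicate 2 (0.0405). The part of these shifts in the results was not tested. Of 17 green tissue markers only 2 were measured. LHCB4.1 differed by 0.07 and RCA by -0.04 between genotypes on cadmium, and neither passed limma's test (adjusted p = 0.509 and 0.7). Over all arrays LHCB4.1 read 12.45 to 13.59 and RCA 13.32 to 13.76, beside 13.58 for the highest mean level of any gene. Compression of signal there was not tested.

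On cadmium the members' mean log2 signal was lower in slim1-1, with differences of -2.03 to -0.80 and a median of -1.07, beside a median of -0.01 over all genes. This corresponds to signals 1.74 to 4.08 times lower, with a median of 2.1, and 45 members were at least 2 times lower. On arsenite the same members differed by -0.49 to 0.45 with a median of 0.05, beside 0.01 over all genes, and 40 of them lay above 0. Limma with Benjamini-Hochberg adjustment called 762 of all genes, 5.71% of those tested, lower in the mutant on cadmium and 884, or 6.62%, higher. With the arrays put on a common median, this split became 1057 lower and 652 higher. The called genes include 73 members, a count that the rule largely fixes, and the exception was AT5G52760. On arsenite the share of all genes called was 0.591% lower and 0.457% higher. No member was among them, which the arsenite window of the rule largely fixes. With 1 array left out, the all-gene count lower in the mutant ranged from 399 to 835 on cadmium and from 34 to 153 on arsenite, and those higher from 452 to 959 and from 16 to 97. The count of 399 was that without slim1-1 cadmium replicate 2. Array weights gave 356 lower and 388 higher on arsenite, and the arsenite arrays alone 6 and 8.

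**Figure D1:**
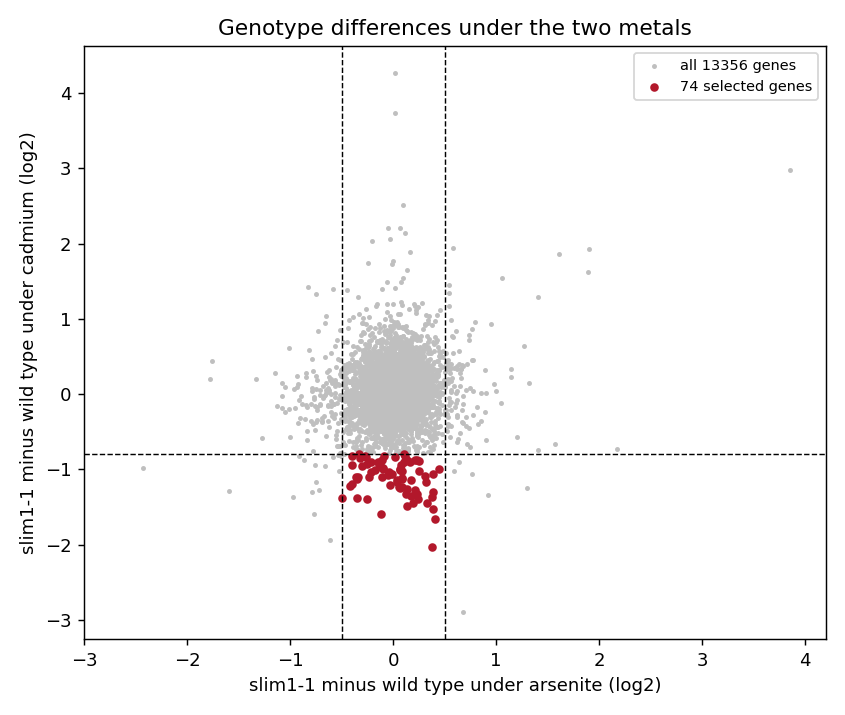
Genotype difference (slim1-1 minus wild type, log2) on cadmium against that on arsenite for every gene, with the 74 members in red and dashed lines at the limits of the rule. The members lie at -0.80 or below on the cadmium axis and between -0.49 and 0.45 on the arsenite axis because the rule placed them there.

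The limit of 0.8 cut through a continuous range of values. The members just inside it were AT1G68110 and AT3G50280, both at -0.80, then AT5G57655 and AT2G05540 at -0.82 and AT3G19030 at -0.82. Just outside lay ndhE at -0.797, AT4G18970 and AT2G32150 at -0.79, AT3G45730 at -0.79 and AT3G51350 at -0.78. At the arsenite window, the members nearest its edges were AT2G32160 at -0.49, AT1G33055 at 0.45, AT5G22390 at -0.41, AT2G25200 at 0.40 and AT1G72940 at -0.40. The genes nearest outside it were AT1G66100 at -0.51, AT4G22212 at -0.53, AT5G18600 at -0.54, AT2G43550 at -0.58 and AT3G55790 at 0.59.

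Members related to energy supply are described first. AKINBETA1 encodes a β subunit of SnRK1, the kinase complex that senses low energy and sugar supply in plants. On cadmium its log2 signal was 9.33, 9.10 and 9.73 in the wild type and 8.35, 8.18 and 8.59 in slim1-1. On arsenite it was 10.32, 10.11 and 10.27 in the wild type and 10.23, 10.22 and 10.46 in slim1-1. The genotypes were thus apart on cadmium, by -1.01 ± 0.15 (SE), and interleaved on arsenite, where they differed by 0.07. Each SE given is limma's, from a spread pooled over the 4 groups and moderated across genes, not that of the cadmium arrays alone. The SD of AKINBETA1 on cadmium was 0.32 in the wild type and 0.20 in slim1-1.

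A list of genes known to respond to sugar and energy starvation held 21 genes, of which 3 were measured, AKINBETA1, AT2G20670 and AT3G15450, and all 3 were members, beside 0.554% of all genes. The list was written with earlier results of these data known, so its count supports nothing. AT2G20670 had the lowest cadmium difference of the members. Its wild-type values on cadmium were 10.64, 10.32 and 10.86 and its mutant values 8.45, 8.48 and 8.79, a difference of -2.03 ± 0.15 (SE). On arsenite it read 11.21, 11.05 and 11.49 in the wild type and 11.59, 11.52 and 11.78 in the mutant, so that the mutant was below the wild type on every cadmium array and above it on every arsenite array. AT3G15450 had the highest mean level of all members. It read 10.95, 10.64 and 11.43 in wild type and 9.71, 9.87 and 9.75 in slim1-1 on cadmium, and between 12.99 and 13.11 on all 6 arsenite arrays. The mutant difference was -1.23 on cadmium and 0.09 on arsenite, the latter small but without overlap between the genotypes. Its arsenite values lay near the highest mean level of any gene over the arrays, 13.58, and compression of signal there was not tested.

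Relative to the all-gene median difference, both transcription factors with a symbol among the members were lower on cadmium than on arsenite in either genotype. Without untreated seedlings, a low value on cadmium cannot be told apart from a high value on arsenite. ORA47 is an AP2/ERF factor induced by jasmonate. Its values on cadmium were 5.39, 4.82 and 4.70 in the wild type and 3.89, 4.05 and 3.65 in slim1-1, against 11.23 to 11.69 on the arsenite arrays. The genotype difference was -1.11 on cadmium and -0.23 on arsenite, and the mutant lay below the wild type on all arrays of both metals. WRKY22 is a WRKY factor of immune signalling downstream of MAP kinases. On cadmium it read 6.40, 6.25 and 6.42 in the wild type and 5.25, 5.29 and 5.41 in slim1-1, a difference of -1.04 ± 0.10 (SE). On arsenite the wild type read 10.23, 9.96 and 10.01 and the mutant 9.83, 9.70 and 10.02, and the genotypes overlapped.

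CHI is annotated as a chitinase, an enzyme class that cleaves the chitin of fungal cell walls. On cadmium CHI read 9.22, 9.04 and 9.09 in the wild type and 7.80, 8.50 and 8.34 in slim1-1, where replicate 1 lay apart from the other mutant arrays. The difference was -0.90 ± 0.14 (SE), and on arsenite it was 0.10, with values of 9.10 to 9.37 over both genotypes. MSRB6 is a methionine sulfoxide reductase, one of the enzymes that repair oxidised methionine, a sulfur amino acid. Its wild-type values on cadmium lay close together, at 10.25, 10.22 and 10.23, and those of slim1-1 were 9.29, 9.40 and 9.51. On arsenite MSRB6 read 10.20, 10.37 and 10.44 in the wild type and 10.57, 10.58 and 9.90 in the mutant, whose replicate 3 was the lowest of the 6 arrays. The difference between genotypes was -0.84 on cadmium and 0.01 on arsenite.

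CHX16 belongs to the cation/H+ exchangers, membrane proteins that swap monovalent cations for protons. On cadmium it read 7.04, 6.93 and 7.04 in the wild type and 5.81, 5.86 and 6.25 in slim1-1. On arsenite it read 8.67, 8.28 and 8.47 in the wild type and 8.60, 8.63 and 8.95 in slim1-1, with overlap between the genotypes. Its difference was -1.03 ± 0.13 (SE) on cadmium and 0.25 on arsenite. P1R3 was among the weakest members in signal. It read 5.60, 5.12 and 5.46 in the wild type and 4.22, 4.13 and 4.47 in slim1-1 on cadmium, and 4.47 to 4.90 on arsenite in both genotypes. The genotypes overlapped for P1R3 on arsenite. Its values there lay little above the lower quartile of all genes, 4.31 in the wild type and 4.29 in slim1-1. A lower value in the mutant would be hard to see at that level.

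**Figure D2:**
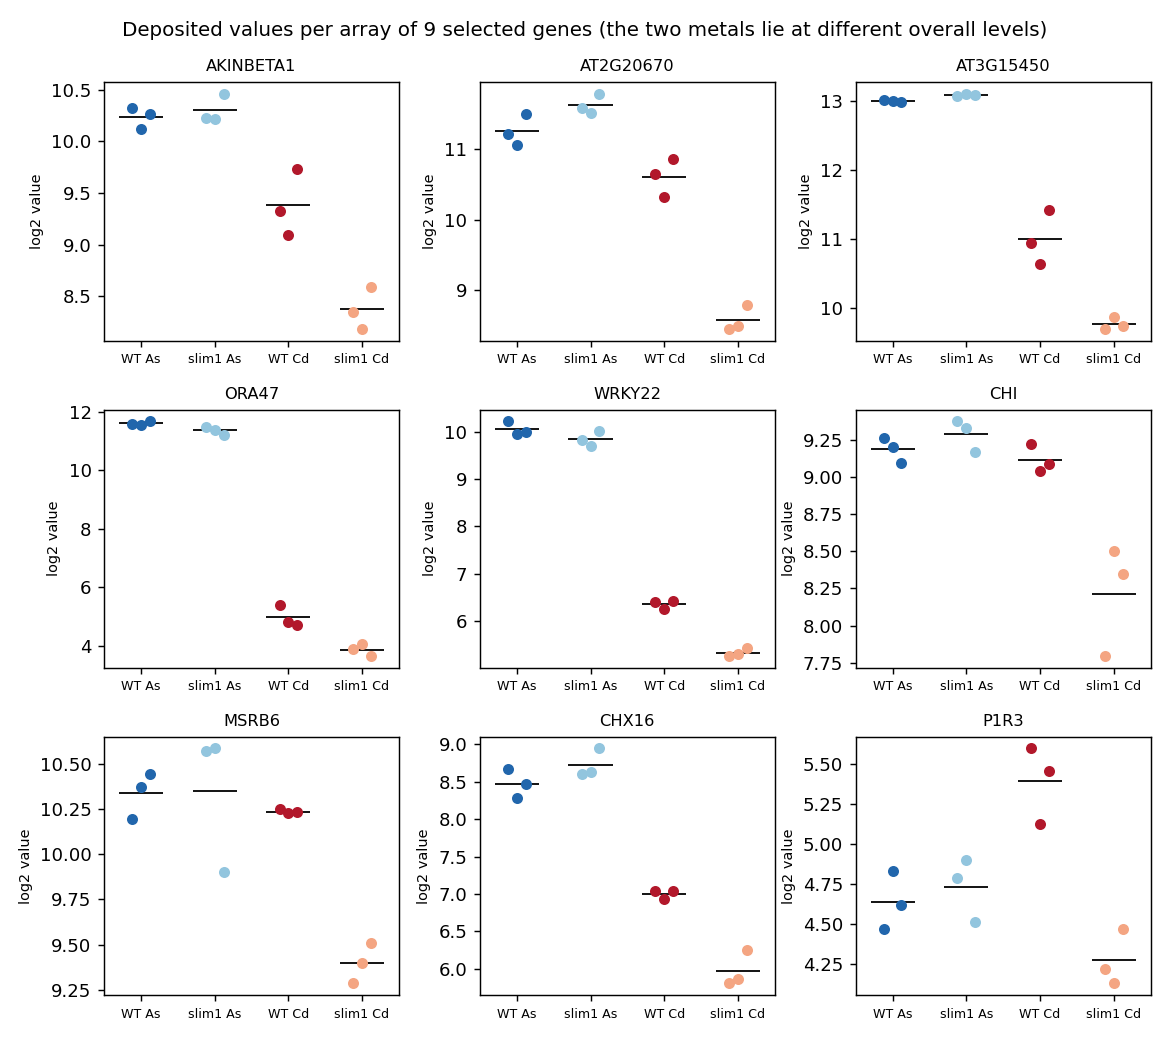
Deposited log2 signal of 9 members on each of the 12 arrays, by genotype and metal, with group means as lines. In each panel the 3 mutant cadmium values lie below the 3 wild-type cadmium values, and AT2G20670 and AT3G15450 show the mutant slightly above the wild type on arsenite.

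In the annotation used here 67 members have a locus name only, AT2G20670 and AT3G15450 among them, and no role is given for the others. After AT2G20670, the largest differences on cadmium were those of AT2G25200, AT1G62510, AT3G60270, AT3G23880, AT2G37950 and AT4G27450, from -1.67 to -1.44. These 6 were singled out by size after their values were seen. AT2G25200 read 8.69, 8.48 and 9.08 in the wild type and 7.21, 6.98 and 7.06 in slim1-1 on cadmium. Its arsenite values were 9.26, 9.04 and 9.24 in the wild type and 9.36, 9.66 and 9.74 in the mutant, which was higher on every array. AT1G62510 read 10.79, 10.82 and 10.81 in the wild type and 9.04, 9.33 and 9.28 in slim1-1 on cadmium. On arsenite it read 9.95, 9.77 and 10.54 in the wild type and 9.71, 9.64 and 10.56 in slim1-1, so the genotypes overlapped and replicate 3 was the highest in each.

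The clearance between the genotypes on cadmium, taken as the lowest wild-type value minus the highest mutant value, ranged from 0.0581 in AT5G52760 to 1.53 in AT2G20670, with a median of 0.733. It was also small in AT2G24600, at 0.168, and in AT4G36700, at 0.186. On cadmium all 74 members had no overlap, as the rule required, beside 15.6% of all genes with every mutant value below every wild-type value. On arsenite the mutant lay below the wild type on every array in 13 members, 17.6%, beside 8.25% of all genes. It lay above on every array in 14 members, 18.9%, beside 9.95% of all genes. These shares describe values that the rule also used, and nothing is read from them.

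Relative to the wild-type mean of the same metal, the median member was lower, at -1.19, -1.1 and -0.94, on the mutant cadmium arrays of replicates 1, 2 and 3. The wild-type cadmium arrays had medians of 0.02, -0.13 and 0.10, and the mutant arsenite arrays of -0.09, 0.07 and -0.01. All-gene medians on the 12 arrays lay between -0.023 and 0.027. The rule placed all 3 mutant cadmium arrays below the wild type, and replicate 3 was the highest of them in 41 members. Among the wild-type cadmium arrays replicate 2 was the lowest in 47 members.

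**Figure D3:**
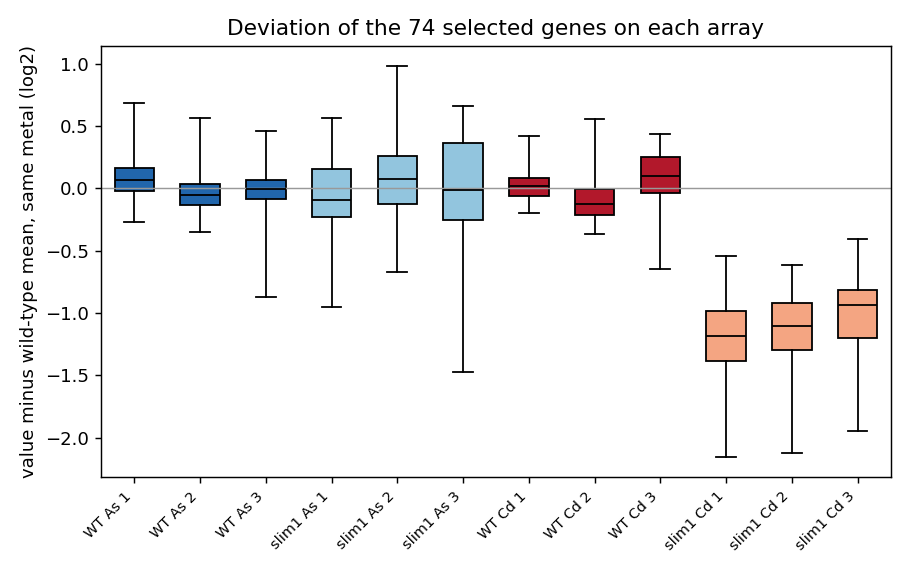
Deviation of each member from the wild-type mean of the same metal (log2) on each array, as boxes from the lower to the upper quartile with the median drawn and whiskers to the lowest and highest member. The 3 mutant cadmium arrays have medians of -1.19, -1.1 and -0.94, and the other 9 arrays have medians between -0.13 and 0.10.

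The members were measured at higher signal than most genes, with a median level of 8.28 over the 12 arrays and a range of 4.47 to 11.72, beside a median of 5.79 over all genes. Their replicates also spread more, with a median SD of 0.18 in the wild-type cadmium group beside 0.0909 over all genes and of 0.148 in the mutant cadmium group beside 0.102. AT4G36700 was the member of lowest signal. It lay below the lower quartile of all genes in both arsenite groups, where a difference between genotypes would be hard to see, and no member lay there on cadmium. A second probe set was present for 1 member, AT2G30600, and was not used by the rule. On cadmium that probe set read 6.58, 5.99 and 6.69 in the wild type and 5.58, 5.17 and 5.24 in slim1-1, a difference of -1.09 beside -1.04 for the probe set used. Its arsenite difference was -0.14. It reports the same RNA samples and is no independent replicate.

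For the test of cadmium against arsenite, each array was centred on its own median over genes. The all-gene median difference after centring was 0.20, and the differences printed here are given relative to it, while limma's p tests the centred difference, which is higher by 0.20. Metal, dose, set of arrays and any difference in exposure time cannot be told apart in this comparison. The clock gene GI, no member, read 10.09 to 10.31 on the arsenite arrays and 5.36 to 6.09 on the cadmium arrays as deposited. The all-gene median difference between metals on that scale was -1.15. A difference in time of harvest between the metals was not tested. The mutant's low cadmium value also enters the average over genotypes and lowers it for every member. With limma and Benjamini-Hochberg adjustment, 28 members (37.8%) were called higher and 37 (50.0%) lower on cadmium than on arsenite, beside 55.1% of all genes higher and 22.2% lower. Without centring, 5 members (6.76%) were called higher and 61 (82.4%) lower, beside 1.72% and 96.1% of all genes, so the split depends on the scaling for members and for all genes.

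Within each genotype the values are a description, since the wild-type means also entered the rule and a high wild-type value on cadmium helps a gene to qualify. In the wild type the median relative difference between cadmium and arsenite was 0.16, with a range from -5.50 to 3.77. In the wild type 22 members, 29.7%, lay above 1 on the log2 scale beside 3.59% of all genes, and 21 members, 28.4%, lay below -1 beside 7.29% of all genes, with 31 between. In slim1-1 the median was -1.06, with 6 members above 1 and 39 below -1. The relative difference was positive in the wild type and negative in the mutant for 24 members, positive in both for 17 and negative in both for 33. The mutant values carry the genotype differences that chose the members, so the shift from one genotype to the other is part of the rule.

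The members lowest on cadmium relative to arsenite, averaged over the genotypes, included both named transcription factors. ORA47 fell by 5.93 (limma adjusted p = 1.51e-13) and WRKY22 fell by 2.98 (1.91e-12). AT2G24600 fell by 3.33, AT1G10340 fell by 3.17 and AT2G25735 fell by 3.06, with limma adjusted p between 7.13e-11 and 1.01e-08. Each of these 5 was lower on cadmium than on arsenite in the wild type as well. The relative differences there were -5.50 in ORA47, -3.01 in AT2G24600, -2.44 in AT1G10340, -2.70 in AT2G25735 and -2.58 in WRKY22. AT2G24600 read 11.38, 10.72 and 10.91 in the wild type on arsenite and 7.06, 7.08 and 6.45 on cadmium, where the mutant read 6.28, 5.97 and 5.55.

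At the other end, AT1G65490 rose by 3.09 ± 0.07 (SE, limma adjusted p = 5.76e-13), AT1G69570 by 3.02 (8.59e-13) and AT1G49200 by 3.00 (3.67e-10). AT5G02540 rose by 1.79 (limma adjusted p = 2e-06) and AT4G36700 by 1.68 (2.95e-07), the latter against arsenite values below the lower quartile of all genes, so its size is uncertain. AT1G65490 read 7.99, 7.74 and 7.96 in the wild type on arsenite and 10.59, 10.50 and 10.49 on cadmium, while slim1-1 read 7.78, 8.18 and 8.13 and then 9.26, 9.33 and 9.23. The mutant was thus higher on cadmium than on arsenite too, by a relative 2.41 where the wild type was higher by 3.77.

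Of the other members with a symbol or in the starvation list, P1R3 rose by 1.29 on cadmium relative to arsenite (limma adjusted p = 2.21e-08), MSRB6 by 0.62 (7.82e-06) and CHI by 0.58 (1.02e-05). Without centring, the averages of CHI and MSRB6 were -0.57 and -0.53 and P1R3 was no longer called. These uncentred values are not relative to the all-gene median, which was itself -1.15, and CHI and MSRB6 still lay above it. CHX16 fell by 0.96 (limma adjusted p = 7.3e-06), AT2G20670 fell by 0.70 (0.000657) and AT3G15450 fell by 1.51 (9.02e-08). AKINBETA1 had a relative difference of -0.24, with values of 0.29 in the wild type and -0.77 in slim1-1. It was not called (limma adjusted p = 0.74), but that p tests its centred difference of -0.04 ± 0.10 (SE) and not the relative -0.24. Without centring AKINBETA1 was called lower, at -1.39 (limma adjusted p = 9.81e-09), beside the all-gene median of -1.15.

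**Figure D4:**
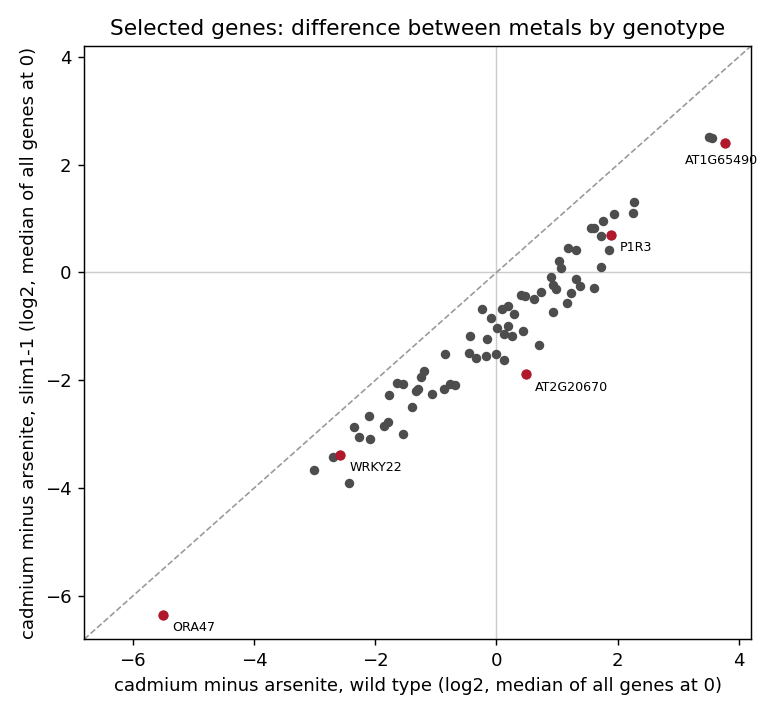
Difference between cadmium and arsenite (log2, relative to the all-gene median) in slim1-1 against that in the wild type, 1 point for each of the 74 members, with the dashed line marking equal differences and red marking labelled genes. The members spread from -5.50 to 3.77 in the wild type, with medians of 0.16 in the wild type and -1.06 in slim1-1.

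The members lay on all 5 nuclear chromosomes, with 23, 14, 12, 7 and 18 on chromosomes 1 to 5 in the RefSeq annotation of assembly TAIR10.1. Their shares of 31.1%, 18.9%, 16.2%, 9.46% and 24.3% compare with 26.3%, 15.3%, 20.5%, 14.4% and 23.4% of the measured genes. CHI and AT2G43590 flank AT2G43580, which was lower in slim1-1 on cadmium, at -0.40 (limma adjusted p = 0.0368) and is no member. AT2G43590 read 10.13, 9.99 and 9.60 in the wild type and 8.45, 9.15 and 9.11 in slim1-1 on cadmium, and replicate 1 was the lowest mutant array in it as in CHI. AT3G60270 and AT3G60290 lie close together on chromosome 3, with differences of -1.52 and -1.15 on cadmium and 0.39 and 0.04 on arsenite. Neighbours with similar sequences can share signal on arrays, which was not tested. Of 75 measured genes directly beside a member, 9 (12.0%) were called lower and 2 (2.67%) higher on cadmium, beside 5.71% and 6.62% of all genes, with a median difference of -0.06.

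Of 288 genes in 17 lists of sulfur, stress, hormone and tissue processes, 29 were measured, that is, had a probe set listed with a single gene. The others were not examined here, and 8730 probe sets of the array had no listing, so nothing is known of them from these results. The 4 lists on sulfur starvation, sulfate assimilation, glutathione and glucosinolates held 11 measured of 86 genes, and 5 lists, on salicylate defence, abscisic acid, phosphate starvation, nitrate and water channels, had no measured gene. None of the 11 measured genes of the sulfur lists was a member. The sulfur starvation list had 3 measured genes. BGLU28, a thioglucosidase induced under sulfur limitation, was lower in slim1-1 on cadmium, at -2.90 (limma adjusted p = 2.88e-05). It differed by 0.68 on arsenite (limma adjusted p = 0.268). Its wild-type arsenite values, 4.48 to 4.56, lay little above the lower quartile of all genes there, 4.31, where a lower mutant value would be hard to see. AT5G64190 was lower on cadmium, at -1.24 (limma adjusted p = 0.00132), and higher by 1.3 on arsenite (0.0065), outside the arsenite window. The third gene, AT1G04770, was higher in the mutant on both metals, by 1.63 on cadmium and 1.89 on arsenite.

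Of 3 measured genes of sulfate assimilation, APS3, an ATP sulfurylase, was lower in slim1-1 on cadmium, at -0.73 (limma adjusted p = 0.00771), as was SIR, sulfite reductase, at -0.39 (0.0144). The third, APS4, differed by 0.19 and did not pass the test there (0.293), and it was lower on arsenite, at -0.62 (0.0182, lost at up to 0.0638 without slim1-1 arsenite replicate 2 or wild-type arsenite replicate 2 or 3). None of 2 measured genes of glutathione and metal transport was called by limma on either metal. On cadmium none had an unadjusted p under 0.05, and on arsenite 1 had, MT1C, a metallothionein, at -0.41 (limma adjusted p = 0.33). Of 3 glucosinolate genes, GSTU20 was called higher by 0.41 (limma adjusted p = 0.0417, and up to 0.164 under 7 alternatives). UGT74B1, a glucosyltransferase of the same pathway, lay at -0.31 and did not pass (0.0572), although it did under 5 alternatives (0.0279 to 0.0384). BCAT4, an aminotransferase of methionine-derived glucosinolate synthesis, lay at -0.37 on cadmium (limma adjusted p = 0.322) and at -0.69 on arsenite (0.181), below the wild type on every arsenite array. Among 5 xyloglucan hydrolase genes, which remodel cell walls, XTH18, XTH19 and XTH32 were higher in the mutant on cadmium by 0.72, 0.99 and 0.39 (limma adjusted p = 0.00293, 0.0141 and 0.00771). The call of XTH19 was lost without slim1-1 cadmium replicate 1 or wild-type cadmium replicate 1 (limma adjusted p = 0.0547). The clock gene GI was higher by 0.41 (limma adjusted p = 0.0102). Limma called none of the measured jasmonate (1), cytokinin (2) or lignin (1) genes on either metal, and none had an unadjusted p under 0.05.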

How the data were processed

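The deposited values were log2 signals per probe set, made by the authors with RMA, per the submitters' processing notes, which summarise probes after background correction and normalization. Which arrays were normalized together is not given in the sources used here. RNA came from Qiagen RNeasy columns, per the labels' protocols. Of 22810 probe sets, 64 were controls, 13513 were listed with 1 gene, 503 with several and 8730 had no listing. The probe set of highest mean was kept per gene, which gave 13356 genes, of which 13286 matched the RefSeq annotation.

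The members and the gene lists were chosen with earlier results of these data known. Named genes are the members with a symbol or in a list, those nearest each limit, the 5 highest and 5 lowest between metals, and all called list genes. Further genes outside this choice are named by size of difference, clearance, chromosome position, second probe set, separation on both metals, or as uncalled list genes. All 12 arrays entered 1 limma fit (limma 3.58.1 in R 4.3.3) with 4 group means. Adjusted p-values (Benjamini-Hochberg over all genes, called under 0.05) came from empirical Bayes, with each array centred on its median for the contrast between metals. The fit was tested on simulated data. With 3 arrays per group, an exact permutation test cannot go below 0.1, and the number of arrays limits the precision. Alternatives were quantile normalization, a common median, array weights, a filter on level, each metal alone, a replicate block, each array left out, and other limits of the rule. No promoter or protein sequence was used here, and the planned motif search was not run.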

Additional observations from a re-analysis of the deposited data

Results flagged for a closer look

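In 14 members all 3 slim1-1 arrays lay above all 3 wild-type arrays on arsenite and below them on cadmium, where the rule fixed the direction. Of all genes, 9.95% lay above on every arsenite array. The members were AT2G20670, AT2G25200, AT3G60270, AT2G37950, AT4G28290, AT4G19160, AT1G23390, AT3G07350, AT3G15450, AT5G51390, AT2G29300, AT5G19120, AT2G39980 and AT1G33055. The difference between the metals was not tested for them, because the rule used both contrasts. In 13 further members, beside 8.25% of all genes, all slim1-1 arrays lay below all wild-type arrays on arsenite as well.

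Outside the members, 7 listed genes had genotype differences that changed between the metals in limma's interaction term (cadmium minus arsenite). The lists had 29 measured genes, 3 of them members, and were chosen with earlier results known. The share of all genes called by this term is not given here, so nothing is read from the count. In sulfur starvation the called genes were BGLU28, at -3.58 (limma adjusted p = 0.000347), and AT5G64190, at -2.55 (0.00039). XTH18 had an interaction of 1.26 (limma adjusted p = 0.00189) and APS4 of 0.81 (0.0122). The APS3 interaction of -0.88 (limma adjusted p = 0.0363) lost its call in 8 of 19 alternatives, at 0.055 to 0.0951. Those of GI, at 0.51 (limma adjusted p = 0.0419), and XTH32, at 0.45 (0.042), each lost it in 13 alternatives, at up to 0.103 and 0.106.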

How the results depend on the processing

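The number of members depends on the limits: 45 genes met the rule at a limit of -1.0, 169 at -0.6 and 53 with an arsenite window of 0.3, while leaving out 1 array gave 71 to 95, the highest without slim1-1 cadmium replicate 3. Quantile normalization gave 76 genes, 72 of them shared with the 74, and a common median 90, with 73 shared. Between metals, members called higher or lower numbered 5 and 61 without centring (1.72% and 96.1% of all genes), 26 and 40 after quantile normalization (36.6% and 28.9%), and 28 to 29 and 35 to 40 with 1 array left out. Without centring, CHI (-0.57, limma adjusted p = 9.04e-05) and MSRB6 (-0.53, 0.000274) were called lower, although both lay above the all-gene median of -1.15. Over all genes on cadmium, leaving out 1 array gave 399 to 835 lower, fewest without slim1-1 cadmium replicate 2 (440 when replicate 1 or 3 of the wild type was omitted), and 452 to 959 higher. On arsenite it gave 34 to 153 lower and 16 to 97 higher, a common median gave 152 lower, array weights gave 356 lower and 388 higher, and the 6 arsenite arrays alone gave 6 lower and 8 higher. The causes were not tested. Equal replicate numbers gave no sign of pairing, since 1 of 18 same-number correlations was over 0.1, with a range of -0.33 to 0.14. Among different-number pairs 5 of 36 were over 0.1, with a range of -0.14 to 0.34. Pairing under another numbering was not tested. A replicate block gave 657 lower and 728 higher on cadmium, 73 and 48 on arsenite, and 28 and 38 members between metals. The motif search was not run.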
